A study of Mus musculus with 12 samples.

Results

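The 46 DNA replication and S phase genes described here were taken by name from the 48709 genes listed for HSPC, the hematopoietic stem and progenitor cells of mouse bone marrow that give rise to the blood lineages. All 46 were found in both deposited expression tables, and all 46 passed the filter on low values in both comparisons. The cells came from the bone marrow of wild-type mice (genotype WT), were transfected with control miR, miR184 or miR499, were sorted, and gave RNA 2 days later. The miR184 table holds miR184 1 to 3 and controls 1 to 3, and the miR499 table holds miR499 1 to 3 and controls 4 to 6, and each table served as its own comparison. In the miR499 table, the column headers of controls 4 to 6 carry an extra string of digits that those of miR499 1 to 3 lack. Its meaning is not given. If it marks a difference in handling, that difference cannot be told apart from an effect of miR499. The labels give neither the arm or dose of the miRNA nor the markers used for the sort, nor whether the replicates were separate cultures or mice. The p-values therefore speak of the spread between these libraries, which may be technical.

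DNA replication starts when the origin recognition complex, with Cdc6 and Cdt1, loads the Mcm2 to Mcm7 helicase onto origins in G1, a step called licensing. In S phase, Cdc45 and the GINS complex join the loaded helicase and activate it, primase and DNA polymerases copy the opened strands, and the ring-shaped clamp Pcna, loaded by replication factor C, holds the polymerases on the template. Many of these genes are transcribed at the border of G1 and S under the E2F factors, so their summed mRNA is widely used as a sign of proliferation, and HSPC in the marrow are known to divide rarely at the stem cell end and often among progenitors. In bulk RNA, fewer cells in S phase and less of these mRNAs per cell cannot be told apart.

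MicroRNAs pair with messenger RNAs mainly through their seed, bases 2 to 8 from the 5′ end. The mature sequences below, from RefSeq on GRCm38.p6, are those of the arms that are usually the abundant ones of each precursor in mammals. They are shown because the sites that follow were found with them, and the seed is in capitals.
mmu-miR-184-3p (chr9:89802263-89802284, minus strand): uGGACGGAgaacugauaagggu
mmu-miR-499-5p (chr2:155622893-155622913, plus strand): uUAAGACUugcagugauguuu

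A site was an 8mer, 7mer-m8 or 7mer-A1 match to the seed in the longest 3′ UTR that GENCODE M21 annotates on GRCm38, the assembly of mm10. The miR-184-3p seed had a site in 1 of the 46 genes (2.17%), against 4.88% of 9672 tested genes with a UTR. The miR-499-5p seed had one in 7 of the 46 (15.2%), against 17.0% of 9103. The median UTR was shorter in the 46 genes, at 757 bases, than in the tested genes, at 1111 bases for miR184 and 1065 for miR499. The sites are given on the mRNA strand with the match in capitals, first the single miR-184-3p site and then those of miR-499-5p.
Clspn (chr4:126593674-126593680, plus strand, 7mer-m8): atgaggttgtgTCCGTCCtttattgagag
Cdc6 (chr11:98923585-98923592, plus strand, 8mer): tttgtcagcaaAGTCTTAAgtgtaattcag
Tipin (chr9:64304560-64304567, plus strand, 8mer): ataaatccttaAGTCTTAAgacttatgtgg
Pold3 (chr7:100083191-100083197, minus strand, 7mer-m8): taaatcttttaAGTCTTAgtcagatgaga
Rfc1 (chr5:65262260-65262266, minus strand, 7mer-m8): tgtccccatgcAGTCTTAgccatcaggtt
Gins2 (chr8:120581380-120581386, minus strand, 7mer-A1): agatgaatttcGTCTTAAcatgatttagg
Rfc2 (chr5:134600168-134600174, plus strand, 7mer-A1): acagtgtgactGTCTTAAaaaaaataacg
Fen1 (chr19:10199663-10199669, minus strand, 7mer-A1): ctgcgagcaatGTCTTAAggaagaagaag

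What the promoters of these genes shared was searched in RefSeq windows from 250 bases before to 50 bases after the start site (GRCm38.p6), which were matched for 37 of the 46 genes (43 windows in all). Any of the E2F-type octamers TTTCCCGC, TTTGGCGC, TTTGCCGC and TTTCGCGC, on either strand and with overlaps allowed, stood in 16 of the 37 (43.2%), against 5.02% of 8120 tested genes. By window, 16 of the 43 (37.2%) held one, against 2.26% of all 32851 windows. The box CCAAT stood in 23 of the 37 (62.2%), against 43.6% of the tested genes. Such a match describes the letters only. A promoter window is shown for each of 3 genes that passed as lower with miR499 when miR499 3 was left out (with all libraries none of them passed, and the changes of Mcm6 and Mcm7 were near 0), with the E2F-type octamers in capitals. In Mcm6, 2 of its 3 matches overlap. Mcm7 has another window (chr5:138171217-138171516) with 0 matches, which is not shown. All 3 genes shown carry a match, whereas 9 matched members that passed in that fit carry none.
Mcm6 (chr1:128359656-128359955, minus strand): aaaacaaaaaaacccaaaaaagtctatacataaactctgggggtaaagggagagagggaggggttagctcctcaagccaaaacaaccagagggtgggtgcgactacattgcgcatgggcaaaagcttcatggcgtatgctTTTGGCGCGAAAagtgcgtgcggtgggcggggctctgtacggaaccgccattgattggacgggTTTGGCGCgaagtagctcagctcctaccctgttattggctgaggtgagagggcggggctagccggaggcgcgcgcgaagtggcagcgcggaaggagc
Mcm7 (chr5:138171834-138172133, minus strand): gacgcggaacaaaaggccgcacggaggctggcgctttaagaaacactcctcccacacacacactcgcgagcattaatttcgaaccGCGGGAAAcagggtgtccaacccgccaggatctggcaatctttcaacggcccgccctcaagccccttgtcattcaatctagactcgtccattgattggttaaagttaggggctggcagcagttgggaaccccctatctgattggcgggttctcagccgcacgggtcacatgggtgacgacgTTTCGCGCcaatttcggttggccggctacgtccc
Gins3 (chr8:95633309-95633608, plus strand): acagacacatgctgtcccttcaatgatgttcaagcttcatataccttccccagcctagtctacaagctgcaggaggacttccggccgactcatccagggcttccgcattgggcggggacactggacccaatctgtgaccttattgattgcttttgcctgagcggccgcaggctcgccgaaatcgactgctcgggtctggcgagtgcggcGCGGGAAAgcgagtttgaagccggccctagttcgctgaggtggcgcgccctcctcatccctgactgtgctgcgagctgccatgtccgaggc

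Levels are in RPKM, the reads of a gene scaled to its length and to the library's total. Those totals, recovered from the values, were 31990355 reads (control 6) to 46601798 reads (control 1), and no member had fewer than 357 reads in any library. The stem and progenitor markers were present in every library, with summed levels of 274 to 579 RPKM and none of the 10 at 0, and the neutrophil precursor genes Elane and Mpo were high, at 1167 RPKM or more. Of the same neutrophil list, S100a8 was at 192 to 933, Ngp at 0.931 to 35.2 and Ltf at 0 to 1.51 RPKM. Monocyte and macrophage markers summed to 543 to 979 RPKM, most of it from Ly6c2, at 442 to 859 RPKM. The others were Cd68 at 50.1 to 93.6, Csf1r at 7.31 to 55.9 and Adgre1 at 2.79 to 9.54 RPKM. T and NK cell markers summed to at most 0.664 RPKM. One treated library of each table stood apart. Genes above 0 numbered 13675 in miR184 3 and 16702 to 17136 in the rest of the miR184 table. The library labelled miR499 3 lay nearer to the mean of controls 1 to 3 than to that of controls 4 to 6 in 39 of the 46 members and in 68.0% of 9566 genes tested in both tables. The same was true of 9 members in miR499 1, of 4 in miR499 2, and of 0 to 2 in controls 4 to 6. The changes of the 46 genes with miR499 are therefore given with and without miR499 3. That library was singled out from these same values, those of the 46 genes included. Leaving it out took the members' median standard error from 0.20 to 0.087 log2 units. The p-values without miR499 3 are therefore likely too small.

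Levels in RPKM are divided by the length of the gene. The ratio of controls 4 to 6 over controls 1 to 3 nonetheless fell with length, with a Spearman correlation of -0.47 across the 46 genes. The order of genes given here therefore describes RPKM within each control set and may differ from the order of mRNA amounts. In controls 1 to 3 the highest of the 46 was Tipin, a partner of Timeless that protects stalled forks, at 187 ± 7.03 RPKM (mean ± SD, n = 3). Next came Mcm6 at 158 ± 7.37, Pcna at 138 ± 4.28, Rrm2 at 133 ± 3.79 and Mcm3 at 126 ± 7.98 RPKM. Pcna and Rrm2 did not differ beyond their spread, nor did Rrm2 and Mcm3. The lowest were the fork mediator Clspn at 3.19 ± 0.0652, the polymerase epsilon gene Pole at 7.09 ± 0.0850, Orc1 at 7.18 ± 0.541 and Pola1 at 7.41 ± 0.890 RPKM, of which the last 3 overlapped. In controls 4 to 6 Tipin again led, at 391 ± 18.4 RPKM, followed by Pcna at 221 ± 11.9, Rrm2 at 160.2 ± 4.65 and then Gmnn and Dut, both at 137 RPKM with SDs of 4.57 and 10.1.

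The same control transfection thus had different levels of many members in the 2 tables. The tables were scaled by the authors and tested here separately, so these levels are set side by side as a description, with no test. Of the 46 genes, 28 were lower and 18 higher in controls 4 to 6 than in controls 1 to 3. Pold1, which encodes the catalytic subunit of polymerase delta (chr7:44532746-44548849, minus strand), was at 44.4, 43.1 and 45.2 RPKM in controls 1 to 3 and at 9.23, 10.8 and 10.9 in controls 4 to 6. Tipin (chr9:64281581-64305424, plus strand) went the other way, at 190.4, 192 and 179 and then 401, 369 and 402 RPKM. No library of either control set came near the other set in these genes. The ratio went with the length of the gene, with a Spearman correlation of -0.47 across the 46 genes and -0.52 across 9564 genes, which share the same libraries. The 23 longer members (3868 to 9590 bases) had a median log2 ratio of -0.80, and 17 of them were lower in controls 4 to 6. The 23 shorter members (1211 to 3685 bases) had a median of 0.11, with 11 lower.

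The library miR499 3 followed controls 1 to 3 in this pattern. It was above the other 5 libraries of its own table in 24 of the 46 genes and below them in 14. For all genes tested in both tables, these shares were 51.7% above and 26.3% below. Pold1 was at 9.80, 8.73 and 37.1 RPKM in miR499 1 to 3, so the value of miR499 3 lay near the 43.1 to 46.4 RPKM of the miR184 table and outside the 8.73 to 10.9 RPKM of the other libraries of its own. Tipin was at 324, 370.0 and 195 RPKM, and Mcm2, a helicase subunit, at 27.4, 23.3 and 71.1 RPKM, with 28.6, 30.1 and 28.7 in controls 4 to 6 and 88.9, 96.04 and 94.7 in controls 1 to 3. Across the 46 genes, the ratio of miR499 3 to the mean of miR499 1 and 2 had a Spearman correlation of -0.92 with the ratio of controls 4 to 6 over controls 1 to 3. The levels of miR499 3 correlated with the mean of controls 1 to 3 at 0.985, against 0.796 to 0.858 for the other 5 libraries of its table. The cause was not tested.

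**Figure D1:**
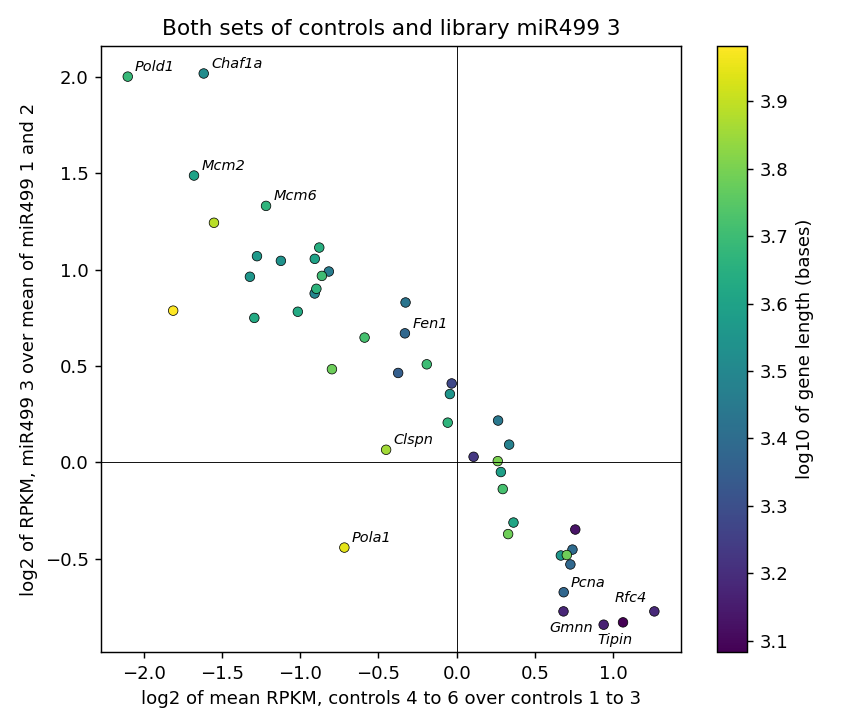
Each point is 1 of the 46 genes, coloured by log10 of its length in bases. The x axis is the log2 ratio of mean RPKM in controls 4 to 6 over controls 1 to 3 and the y axis the log2 ratio of RPKM in miR499 3 over the mean of miR499 1 and 2. Genes that were lower in controls 4 to 6, such as Pold1, Chaf1a and Mcm2, were higher in miR499 3, and Tipin, Gmnn and Rfc4 lie at the opposite end (Spearman -0.92).

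To see whether miR184 altered the replication genes, its 3 libraries were compared with controls 1 to 3. None of the 46 genes passed the test, limma on log2(RPKM + 1) with Benjamini-Hochberg adjustment over all 10372 genes tested, and 0% of all tested genes did. At an unadjusted p under 0.05 there was 1 member, Chaf1a, and 4.58% of all genes. The change was positive in 25 of the 46 genes and negative in 21 (50.6% and 49.4% of all tested genes), and its median was 0.0057 on the log2 scale, against 0.0022 for all. The 95% interval of the change lay within 1.5-fold either way for 45 of the 46 genes, and its median half-width was 0.15 log2 units. Without miR184 3, 0 members and 0 genes passed, 1 member and 6.96% of all genes had an unadjusted p under 0.05, and 27 of the 46 were higher, against 52.4% of all genes. The groups then did not overlap in 6 higher and 4 lower members, with 13.2% and 8.59% of all genes.

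Chaf1a, the large subunit of the CAF-1 complex that places histones on new DNA (chr17:56040439-56072289, plus strand), had the smallest p of the 46. It was at 22.1, 22.2 and 23.8 RPKM in controls 1 to 3 and at 30.5, 29.4 and 35.3 RPKM in miR184 1 to 3. All 3 miR184 libraries lay above all 3 controls. The log2 change was 0.46 ± 0.08 (SE) with an adjusted p of 0.385 by limma, and 0.39 ± 0.05 with an adjusted p of 0.154 by limma without miR184 3. With limma's array weights, which gave miR184 3 a weight of 0.118, Chaf1a passed at an adjusted p of 0.026, as 1 of 167 genes. Its partner Chaf1b was at 19.2 ± 1.47 RPKM in controls and 18.9 ± 1.44 with miR184. Uhrf1, which recognises hemimethylated DNA, was at 61.3 ± 4.80 and 57.2 ± 6.44 RPKM. Slbp, which binds the stem-loop of histone mRNAs, was at 53.7, 54.5 and 52.9 RPKM in controls and 54.6, 51.5 and 53.2 RPKM with miR184, and the groups overlapped in all 3 of these genes.

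Among the 11 origin licensing genes, log2 changes with miR184 ran from -0.10 to 0.15, with 6 higher and 5 lower. Mcm6 (chr1:128331590-128359664, minus strand) was at 149, 161 and 163 RPKM in controls 1 to 3 and 159, 161 and 180.2 RPKM with miR184. Cdt1, the loading factor with the smallest p of the group, was at 29.4, 32.1 and 32.9 and 29.6, 30.5 and 27.9 RPKM. Orc6, a subunit of the origin recognition complex, was at 28.97, 29.3 and 27.4 and 27.2, 25.8 and 28.1 RPKM. In each of these genes the ranges overlapped. The helicase activation genes ran from -0.11 to 0.24 in log2 change. Gins1, a GINS subunit, was at 22.00, 22.1 and 24.02 RPKM in controls and 24.2, 24.6 and 32.6 RPKM with miR184, so that all 3 treated libraries were above the controls and miR184 3 was far above the other 2. Its change was 0.24 ± 0.12, with an adjusted p of 0.827 by limma. Gins4 was at 53.00, 50.6 and 51.2 and 55.4, 52.2 and 53.1 RPKM.

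The 9 polymerase and primase genes ran from -0.08 to 0.15, and none had groups that did not overlap except Pola2 and Pold1. Pole2, the second subunit of polymerase epsilon, was at 17.8, 15.2 and 17.99 RPKM in controls and 17.7, 18.2 and 20.9 RPKM with miR184. Pold2, an accessory subunit of polymerase delta, was at 58.6, 63.4 and 62.9 and 63.9, 61.4 and 60.7 RPKM, and Pole at 7.004, 7.17 and 7.08 and 6.68, 6.94 and 8.51 RPKM. Pcna (chr2:132249162-132253314, minus strand) was at 142, 137 and 134 and 134, 133 and 136 RPKM. The level of Pcna was thus nearly the same in the 6 libraries. Rfc4, a clamp loader subunit, was at 47.03, 42.96 and 46.7 and 48.3, 49.5 and 67.6 RPKM, again with miR184 3 far above the rest, a change of 0.25 ± 0.13 with an adjusted p of 0.827 by limma. Rfc5 was at 42.8, 43.3 and 45.8 and 44.2, 43.3 and 53.00 RPKM.

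Of the strand maturation genes, Fen1, the flap endonuclease that trims Okazaki fragments, was at 92.8, 98.3 and 97.3 RPKM in controls and 99.1, 95.9 and 109.7 RPKM with miR184. Rpa2, a subunit of the single-strand binding protein RPA, was at 45.6, 46.2 and 44.8 and 47.04, 44.6 and 55.1 RPKM. In both the highest value was that of miR184 3, and the groups overlapped. The nucleotide supply genes ran from -0.13 to 0.03. The large ribonucleotide reductase subunit Rrm1 was at 93.7, 97.4 and 97.9 and 94.9, 92.3 and 81.97 RPKM and the small subunit Rrm2 at 130.2, 138 and 132 and 131, 133 and 121 RPKM, both lowest in miR184 3 with overlapping groups. Clspn, the single member with a miR-184-3p site in its UTR, was at 3.17, 3.27 and 3.14 RPKM in controls and 3.29, 2.94 and 2.99 RPKM with miR184, a change of -0.04 ± 0.09 with an adjusted p of 0.89 by limma. Tipin was at 189.6, 180.1 and 208 RPKM with miR184, overlapping its controls. The groups did not overlap in 6 of the 46 genes, all higher with miR184 (Mcm7, Gins1, Pola2, Pold1, Rfc4 and Chaf1a), where 7.3% of all tested genes were higher without overlap and 4.41% lower. The summed level of 5 markers of G2 and mitosis was 265 to 283 RPKM with miR184 and 280 to 292 RPKM in its controls, with 2 of the 5 lower without overlap. That of 2 ribosomal RNA entries was 205 to 236 and 154 to 194 RPKM. Their part in these values was not tested.

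**Figure D2:**
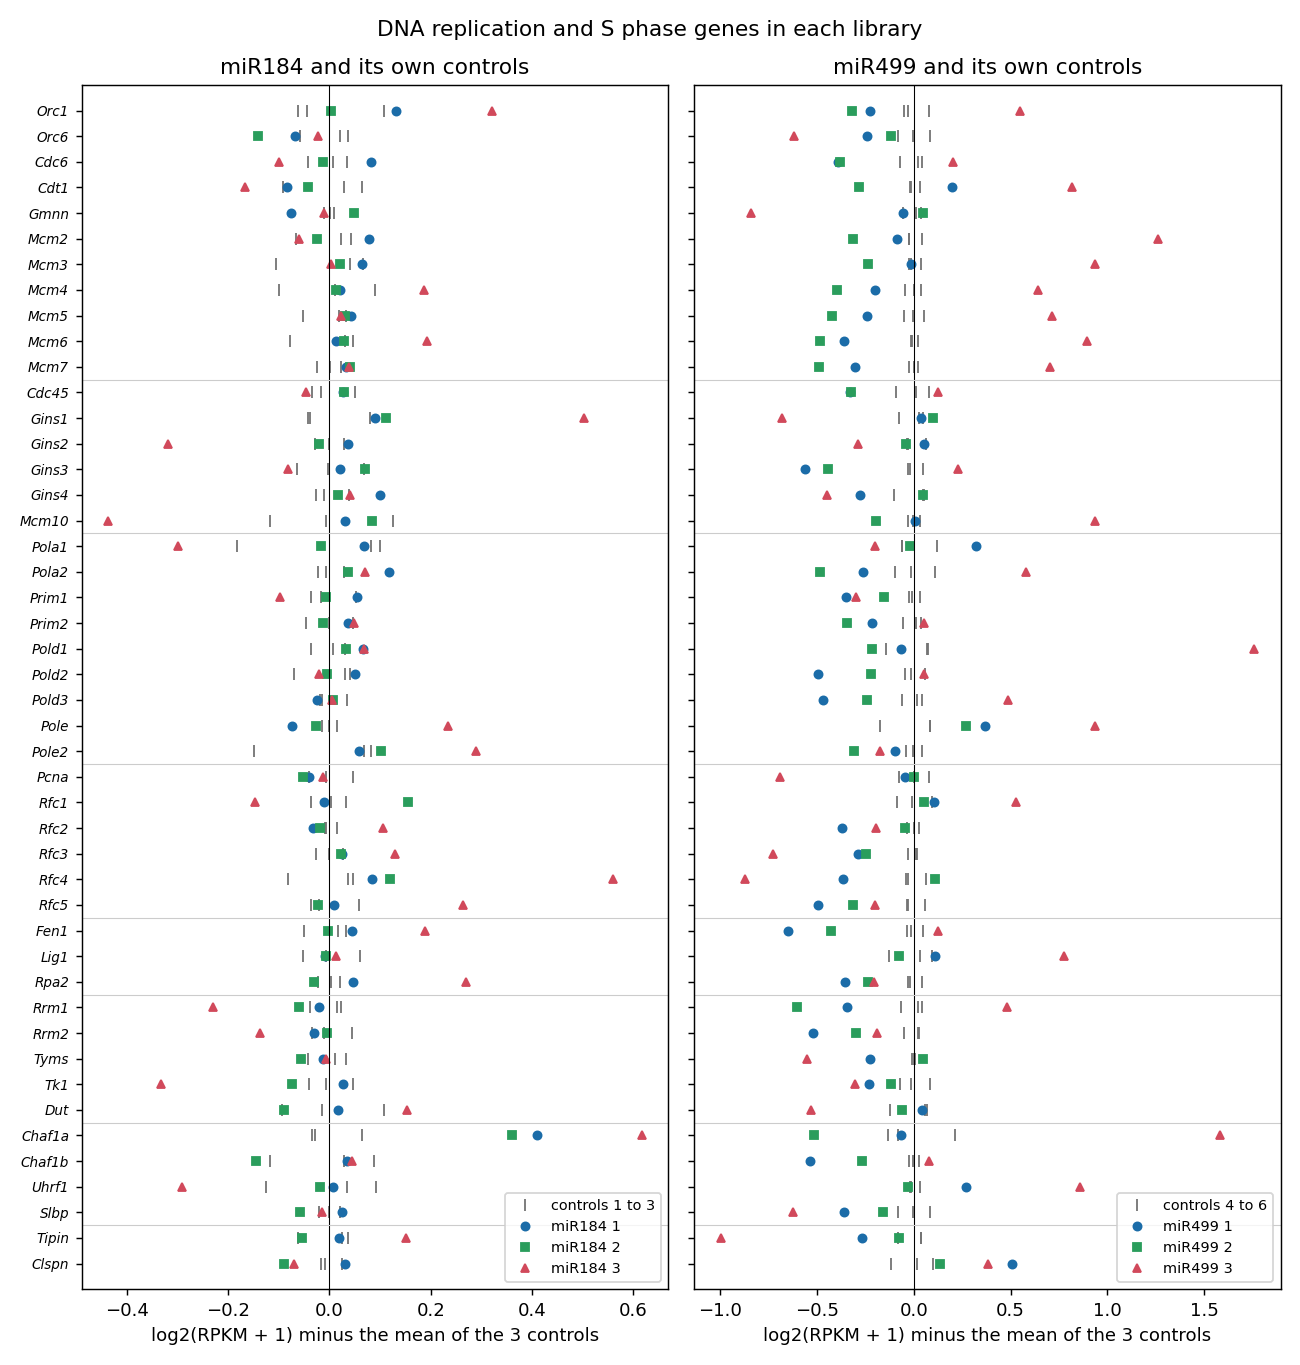
Each symbol is 1 library, plotted as log2(RPKM + 1) minus the mean of the 3 controls of its table, for the 46 genes grouped by role (grey lines part the groups). Grey bars are the controls, and circles, squares and triangles are treated libraries 1, 2 and 3. In the miR184 panel (left) all 3 symbols of Chaf1a lie to the right, and in the miR499 panel (right) the triangles of miR499 3 lie far to either side and most circles and squares to the left. The x axes differ in range.

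The question for miR499 was the same, against controls 4 to 6. With all 6 libraries none of the 46 genes passed limma's test, and 0% of the 9815 tested genes did. At an unadjusted p under 0.05 there were 7 members and 10.1% of all genes. The change was positive in 16 of the 46 and negative in 30 (49.1% and 50.9% of all tested genes), and the median was -0.18, against -0.0072 for all. Over genes with a mean of at least 5 RPKM, 26.8% of 41 members and 32.8% of 5831 genes were higher. The medians there were -0.19 for the members and -0.13 for all. The groups did not overlap in 2 higher genes (Pole and Clspn) and 10 lower ones (Orc6, Prim1, Pole2, Rfc2, Rfc3, Rfc5, Rpa2, Rrm2, Tk1 and Slbp), where 11.4% of all genes were higher and 12.8% lower without overlap. The median half-width of the 95% interval was 0.48 log2 units, and 10 of the 46 intervals lay within 1.5-fold.

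Without miR499 3, 17 of the 46 genes passed, all lower with miR499, where 17.1% of all tested genes passed, 3.47% higher and 13.7% lower. The shares of all genes in this fit include many genes of lower level than most members. They were not taken over genes of a level like that of the members. Among the 17 were 4 of the 6 helicase subunits, the GINS and Cdc45 partners Gins3 and Cdc45, Fen1 and both ribonucleotide reductase subunits. Their levels in miR499 1 and 2 were 67.1% to 82.6% of the controls' mean, with log2 changes of -0.54 to -0.27 and adjusted p of 0.0098 to 0.0401 by limma. In this fit 25 members and 36.3% of all genes had an unadjusted p under 0.05. The change was positive in 8 of the 46 and negative in 38 (41.3% and 58.7% of all genes), and the median was -0.21, against -0.06 for all. The groups did not overlap in 26 lower and 2 higher genes, where 34.1% of all genes were lower and 17.9% higher without overlap, 52% in all. In 12 genes the sign of the change turned when miR499 3 was left out, 10 of them from higher to lower.

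How many passed depended on the scaling. With median-ratio factors in addition, which give the middle gene a change near 0, 7 of the 17 still passed (Cdc6, Mcm6, Mcm7, Gins3, Rfc5, Fen1 and Rrm1), all lower, where 12.5% of all genes passed, 5.97% higher and 6.56% lower. The change was then positive in 12 of the 46 and negative in 34 (50.7% and 49.3% of all genes). With factors from genes of at least 5 RPKM, 4 of the 17 passed (Mcm6, Gins3, Fen1 and Rrm1), where 13.3% of all genes passed, 9.18% higher and 4.17% lower. The change was positive in 17 of the 46 and negative in 29 (59% and 41% of all genes). Among all genes that passed, the share that was higher went from 20.3% to 47.6% and 68.8% under these scalings, and the median of all genes from -0.06 to 0.01 and 0.06. Relative to the median of all genes, that of the members stood at -0.15, -0.13 and -0.13. A factor per library shifts all its genes by nearly the same amount, so this gap could hardly change with the scaling. It did depend on the genes compared. With all libraries the gap was -0.17 over all tested genes and -0.06 over genes of at least 5 RPKM. With limma voom on recovered reads 18 members passed, the 17 among them, where 18.2% of all genes did.

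In the licensing group all 11 genes were lower in the mean of miR499 1 and 2, where 58.7% of all genes were lower. Gmnn and Cdt1 were barely so, at 0.997 and 0.983 times the controls' mean. With median-ratio factors 9 of the 11 were lower and 2 higher. Cdc6, Mcm4, Mcm5, Mcm6 and Mcm7 passed without miR499 3. Mcm6 was at 67.4, 67.2 and 68.9 RPKM in controls 4 to 6 and at 52.6, 48.3 and 127 RPKM in miR499 1 to 3. The first 2 treated libraries lay below every control and miR499 3 far above all of them. The change was 0.02 ± 0.35 (SE) with all libraries, with an adjusted p of 0.984 by limma, and -0.42 ± 0.07 without miR499 3, with an adjusted p of 0.011 by limma. Mcm7 (chr5:138164583-138172422, minus strand) was at 54.3, 52.6 and 53.4 and 43.2, 37.8 and 87.7 RPKM, and Mcm5 at 59.9, 57.5 and 55.7 and 48.7, 42.8 and 95.1 RPKM. Both repeat the order of Mcm6, with miR499 3 highest. Over all libraries the changes of Mcm7 and Mcm5 were -0.03 ± 0.30 and 0.02 ± 0.29, and without miR499 3 -0.39 ± 0.08 and -0.33 ± 0.08. Cdc6, which brings the helicase to origins and carries a miR-499-5p 8mer, was at 10.99, 10.8 and 10.1 and 7.88, 7.93 and 12.4 RPKM, a change of -0.19 ± 0.19 over all libraries and -0.39 ± 0.09 without miR499 3 (adjusted p 0.661 and 0.023 by limma). Mcm4 was at 35.7, 34.5 and 36.5 and 30.8, 26.8 and 56.1 RPKM.

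The other licensing genes did not pass. In Mcm2 and Mcm3 the sign turned with miR499 3. The change of Mcm2 was 0.29 ± 0.39 over all libraries and -0.20 ± 0.09 without miR499 3, and that of Mcm3 0.23 ± 0.29 and -0.13 ± 0.08. Orc6 was at 47.5, 44.9 and 50.5 RPKM in controls and 40.1, 43.9 and 30.7 RPKM with miR499, lower in all 3 libraries but lowest in miR499 3, and had the smallest p of the group with all libraries (adjusted p 0.5 by limma). Orc1 was at 3.54, 3.14 and 3.21 and 2.67, 2.44 and 5.28 RPKM. Cdt1 was at 16.6, 16.6 and 17.2 and 19.4, 13.6 and 30.3 RPKM, so miR499 1 and 2 lay on either side of the controls. Its inhibitor geminin (Gmnn) was at 141, 132 and 138 and 132, 142 and 76.3 RPKM, with the first 2 treated libraries beside the controls and miR499 3 far below them, close to the 67.8 to 74.1 RPKM of the miR184 table.

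Of the helicase activation genes, Gins3 and Cdc45 passed without miR499 3. Gins3 (chr8:95633453-95645060, plus strand) was at 8.24, 8.70 and 8.18 RPKM in controls and 5.34, 5.89 and 9.98 RPKM with miR499, a change of -0.26 ± 0.22 over all libraries and -0.50 ± 0.09 without miR499 3 (adjusted p 0.618 and 0.014 by limma). Cdc45 was at 35.5, 33.8 and 31.4 and 26.5, 26.6 and 36.6 RPKM, a change of -0.18 ± 0.16 and -0.33 ± 0.08 in the same order. In both genes miR499 1 and 2 were below every control and miR499 3 above them. The other GINS subunits did not pass. Gins1 was at 37.1, 34.5 and 37.7 and 37.4, 39.02 and 22.4 RPKM, Gins2 at 22.8, 21.3 and 21.3 and 22.7, 21.2 and 17.7 RPKM, and Gins4 at 90.05, 90.5 and 81.2 and 71.8, 90.1 and 63.6 RPKM. Mcm10, which helps to activate the helicase, was at 3.36 ± 0.0983 RPKM in controls and at 3.38, 2.81 and 7.33 RPKM with miR499.

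**Figure D3:**
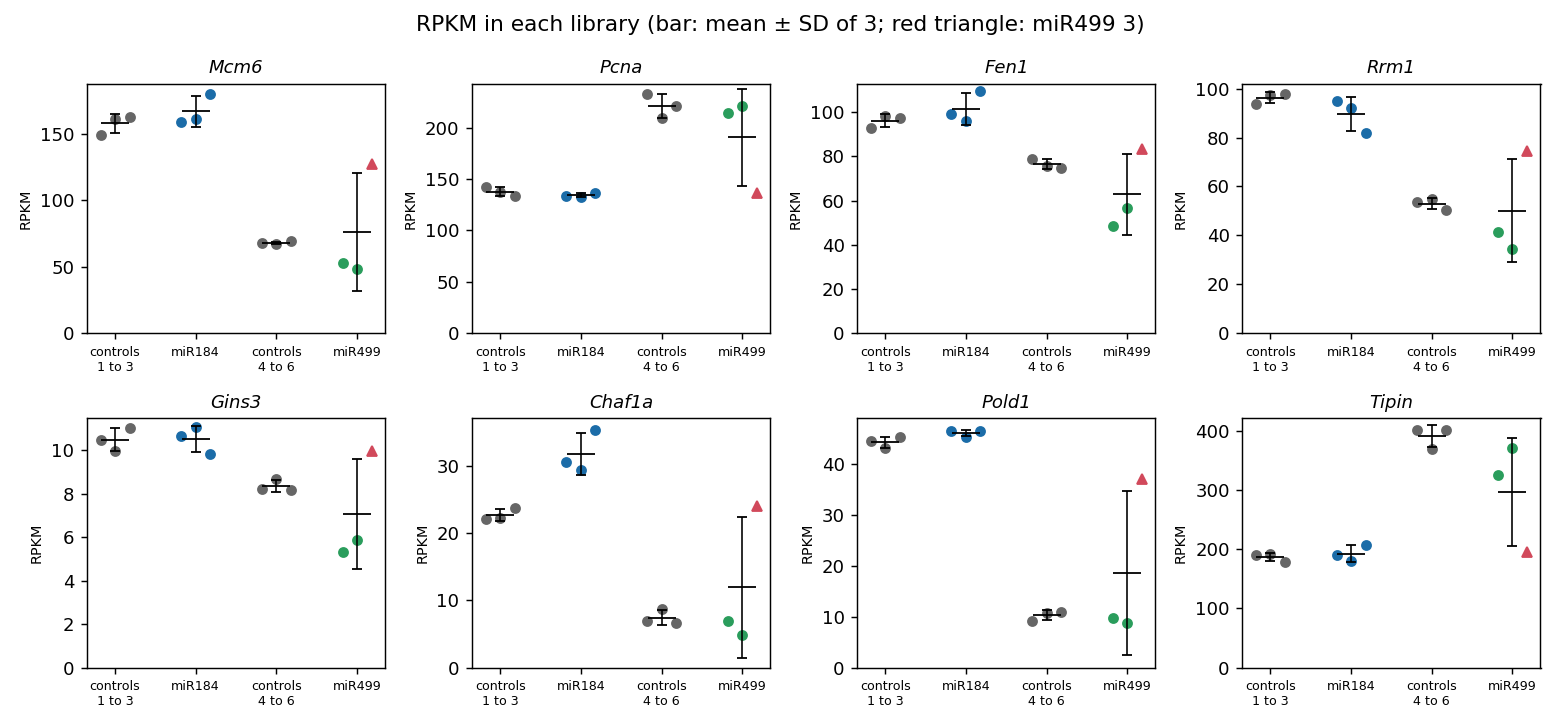
RPKM of 8 of the genes in each of the 12 libraries, on axes that start at 0. Points are libraries, the horizontal bar and whiskers are the mean and SD of the 3 libraries of a group, and the red triangle is miR499 3. In Mcm6, Fen1, Rrm1 and Gins3 the miR499 1 and 2 points lie below controls 4 to 6 while the triangle lies above them, and in Pcna and Tipin the triangle is the lowest point of its table.

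Among the polymerase genes Pola2, Pold2 and Pold3 passed without miR499 3. Pola2, the accessory subunit of polymerase alpha, was at 18.99, 22.1 and 20.1 RPKM in controls and 16.8, 14.3 and 30.9 RPKM with miR499. Pold2 was at 59.6, 62.8 and 58.4 and 42.6, 51.6 and 62.5 RPKM, a change of -0.22 ± 0.16 over all libraries and -0.36 ± 0.09 without miR499 3 (adjusted p 0.564 and 0.032 by limma). Pold3, with a 7mer-m8 site, was at 12.5, 11.8 and 12.7 and 8.62, 10.3 and 17.6 RPKM. The accessory subunits thus lay below the controls in miR499 1 and 2. The catalytic subunits did not pass in either direction. Pole (chr5:110286306-110337474, plus strand) was at 2.19, 2.19 and 1.67 and 2.88, 2.63 and 4.76 RPKM, higher in all 3 libraries, with a change of 0.53 ± 0.21 over all libraries and 0.32 ± 0.12 without miR499 3 (adjusted p 0.491 and 0.091 by limma). Pola1 had a change of 0.04 ± 0.18 over all libraries and 0.15 ± 0.13 without miR499 3. That of Pold1 turned from 0.49 ± 0.50 over all libraries to -0.14 ± 0.10 without miR499 3. The primase subunits Prim1 and Prim2 and the epsilon subunit Pole2 had negative changes without passing, at -0.27 ± 0.11, -0.17 ± 0.14 and -0.19 ± 0.12 over all libraries and -0.25 ± 0.08, -0.28 ± 0.08 and -0.20 ± 0.09 without miR499 3. Pole2 was at 18.9, 17.8 and 18.2 RPKM in controls and 17.05, 14.6 and 16.1 RPKM with miR499.

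Pcna itself was at 233, 209 and 221 RPKM in controls 4 to 6 and 214, 221 and 136 RPKM with miR499. Its change was -0.24 ± 0.20 over all libraries. Without miR499 3 it was -0.02 ± 0.07, with an interval of -0.19 to 0.15, and with median-ratio factors it was 0.06 ± 0.09. Of the clamp loader genes Rfc3 and Rfc5 passed without miR499 3. Rfc5 was at 44.1, 41.3 and 41.4 and 29.7, 33.8 and 36.6 RPKM, with all 3 treated libraries below the controls and a change of -0.34 ± 0.12 over all libraries and -0.40 ± 0.08 without miR499 3 (adjusted p 0.491 and 0.016 by limma). Rfc3 was at 28.8, 28.9 and 27.9 and 23.2, 23.9 and 16.9 RPKM, also without overlap. Rfc4 was at 114, 107 and 106 and 84.6, 118 and 59.3 RPKM, with miR499 2 above the controls and the other 2 below them. Rfc1 and Rfc2, both with a site, did not pass. Rfc1, the large subunit of the clamp loader, was at 10.3, 11.2 and 9.77 RPKM in controls and 11.3, 10.8 and 15.5 RPKM with miR499, a change of 0.23 ± 0.17 over all libraries and 0.08 ± 0.09 without miR499 3. Rfc2, a small subunit, was at 67.05, 64.3 and 65.9 and 50.6, 63.8 and 57.4 RPKM, a change of -0.20 ± 0.12 and -0.21 ± 0.10, with all 3 treated libraries below the controls.

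Fen1 (chr19:10199132-10204169, minus strand) had the largest change of a member without miR499 3 in log2(RPKM + 1), where low genes move less, and Gins3 had the largest as a ratio of RPKM. Levels in miR499 1 and 2 were 0.687 times the controls' mean in Fen1 and 0.671 times in Gins3. Fen1 carries a 7mer-A1 site. Fen1 was at 78.99, 75.7 and 74.6 RPKM in controls 4 to 6 and at 48.4, 56.5 and 83.5 RPKM in miR499 1 to 3. The values of miR499 1 and 2 were below every control and that of miR499 3 above them. The change was -0.32 ± 0.20 with an adjusted p of 0.54 by limma with all libraries, -0.54 ± 0.08 with an adjusted p of 0.0098 without miR499 3, and -0.46 ± 0.09 with an adjusted p of 0.028 with median-ratio factors as well. Rpa2 was at 59.3, 56.7 and 56.3 and 44.7, 48.6 and 49.7 RPKM, below the controls in all 3 libraries, with a change of -0.26 ± 0.11 over all libraries and -0.30 ± 0.07 without miR499 3 (adjusted p 0.491 and 0.028 by limma). Lig1, the ligase that seals Okazaki fragments, had a change of 0.27 ± 0.23 over all libraries and 0.02 ± 0.10 without miR499 3 and passed in neither.

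Both subunits of ribonucleotide reductase, the enzyme that makes deoxynucleotides, fell without miR499 3. Rrm1 (chr7:102441695-102469771, plus strand) was at 53.8, 54.7 and 50.5 RPKM in controls and 41.5, 34.6 and 74.4 RPKM with miR499, a change of -0.16 ± 0.27 over all libraries and -0.47 ± 0.09 without miR499 3 (adjusted p 0.792 and 0.014 by limma). Rrm2 was at 163, 155 and 163 and 111, 129.9 and 140.2 RPKM, a change of -0.34 ± 0.13 and -0.41 ± 0.08 (adjusted p 0.491 and 0.016 by limma). In Rrm2 all 3 treated libraries lay below the controls, whereas in Rrm1 miR499 3 lay above. The thymidylate genes did not pass. Tyms, which makes dTMP from dUMP, had a change of -0.24 ± 0.16 over all libraries and -0.09 ± 0.09 without miR499 3. That of the salvage kinase gene Tk1 was -0.22 ± 0.12 and -0.17 ± 0.08, and that of Dut, which removes dUTP, -0.18 ± 0.18 and -0.01 ± 0.08.

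In the chromatin group Chaf1b passed without miR499 3, at 16.5, 17.1 and 16.8 RPKM in controls and 11.3, 13.8 and 17.8 RPKM with miR499, and with a change of -0.24 ± 0.17 over all libraries and -0.40 ± 0.10 without miR499 3 (adjusted p 0.569 and 0.027 by limma). Chaf1a was at 6.90, 8.68 and 6.63 and 6.98, 4.85 and 23.98 RPKM. Here miR499 1 lay within the controls, miR499 2 below them and miR499 3 near the level of controls 1 to 3, and the change turned from 0.33 ± 0.51 over all libraries to -0.29 ± 0.15 without miR499 3 (adjusted p 0.76 and 0.209 by limma). Slbp was at 71.4, 63.7 and 67.05 and 52.2, 60.2 and 43.4 RPKM, lower in all 3 treated libraries, with a change of -0.38 ± 0.15 over all libraries and -0.26 ± 0.09 without miR499 3, neither of which passed (adjusted p 0.491 and 0.067 by limma). Uhrf1 had a change of 0.37 ± 0.22 over all libraries and 0.12 ± 0.10 without miR499 3 and passed in neither. Of the fork genes, Tipin, with a miR-499-5p 8mer, had a change of -0.45 ± 0.24 over all libraries and -0.17 ± 0.08 without miR499 3 (adjusted p 0.514 and 0.175 by limma). Clspn was at 2.37, 2.57 and 2.07 and 3.74, 2.67 and 3.35 RPKM, higher in all 3 treated libraries, with a change of 0.34 ± 0.16 over all libraries and 0.32 ± 0.13 without miR499 3 (adjusted p 0.493 and 0.121 by limma).

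**Figure D4:**
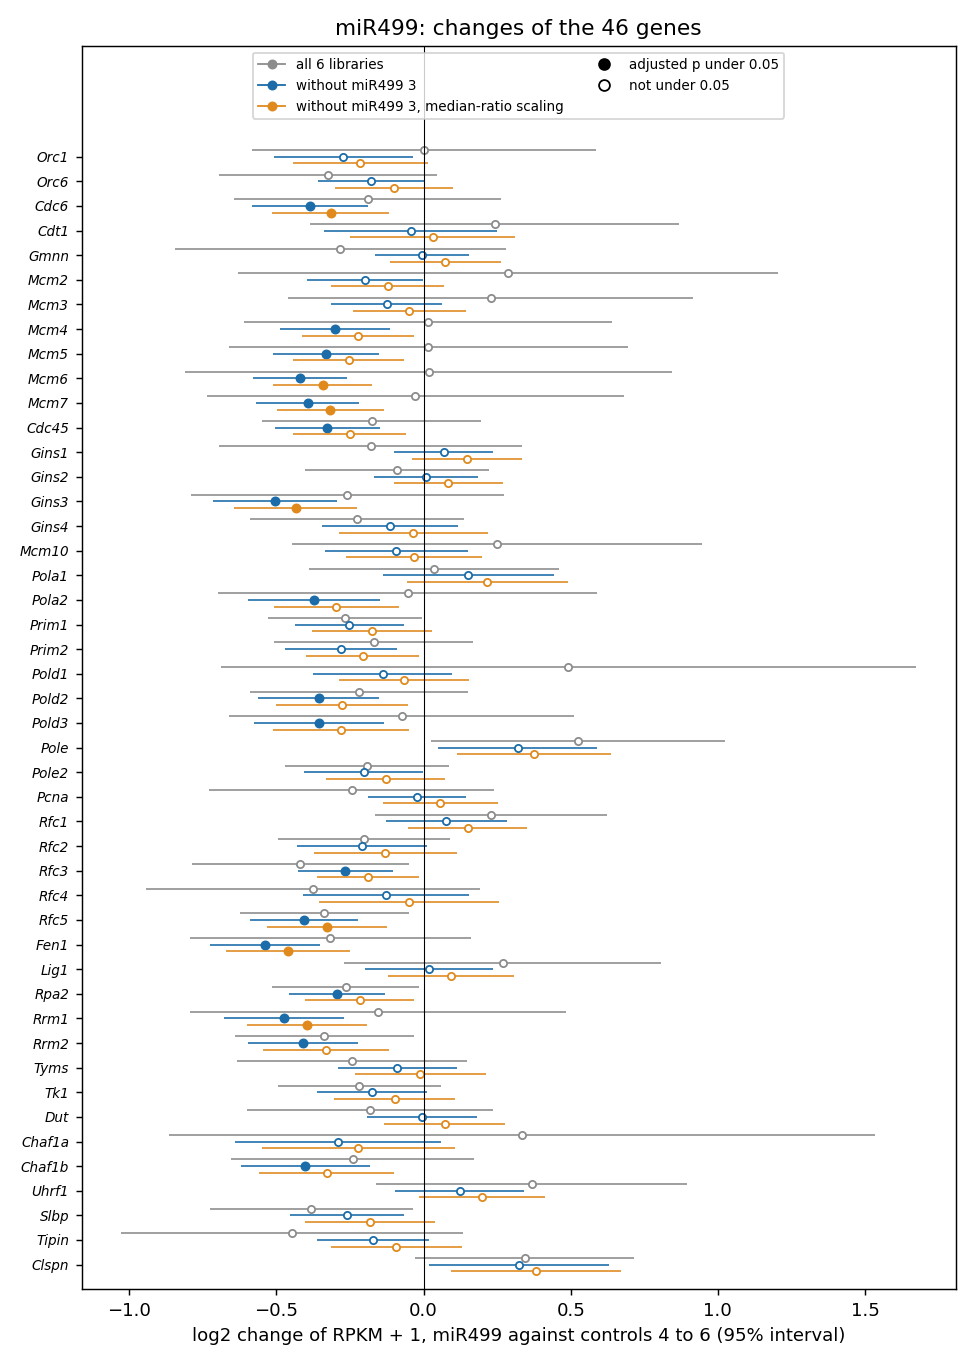
Log2 change of RPKM + 1 for each of the 46 genes, miR499 against controls 4 to 6, with 95% intervals by limma. Grey marks all 6 libraries, blue the fit without miR499 3 and orange the same with median-ratio factors, and filled circles had an adjusted p under 0.05. The grey intervals all have open circles, 17 blue circles are filled and 7 orange ones, all left of 0.

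Members with and without a miR-499-5p site had close values. Without miR499 3, 3 of the 7 with a site passed as lower, and 14 of the other 39. Their median log2 changes were -0.21 and -0.20 without miR499 3, and -0.19 and -0.18 over all libraries. For the promoter letters the picture depended on miR499 3. Without it, 7 of the 16 members with an E2F-type octamer passed as lower, with a median of -0.23, and of the 21 matched members without one 9 passed, with a median of -0.26. Over all libraries none passed, and the medians were 0.02 with the octamer and -0.24 without. The Spearman correlation of the change with gene length was 0.44 over all libraries and 0.11 without miR499 3, across the 46 genes. None of these differences was tested.

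Other measures moved with miR499. The 5 markers of G2 and mitosis summed to 228 to 241 RPKM in the miR499 libraries and 269 to 280 RPKM in controls 4 to 6, none of them at 0. Ccnb1 and Cdk1 were lower in all 3 libraries, Mki67 higher, and the other 2 overlapped. The 2 ribosomal RNA entries, both higher, summed to 119 to 255 RPKM against 66.9 to 78.0 RPKM. The 4 B cell markers summed to 68.3 to 79.3 against 80.2 to 85.0 RPKM, with 1 of the 4 lower without overlap. Stem and progenitor markers summed to 274 to 399 against 301 to 351 RPKM, and neutrophil markers to 4150.0 to 8382 against 4425 to 5496 RPKM. In both sets the highest value was that of miR499 3. Of the 10 stem and progenitor markers 3 (Kit, Gata2 and Hlf) were higher without overlap, and of the 5 neutrophil markers 1 was higher and 2 were lower. The part of these in the result was not tested.

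Whether the members answered differently to the 2 miRNAs was tested as the miR499 effect minus the miR184 effect, each within its own table, so the effects share no controls. As the 2 miRNAs were in different tables, a difference between them cannot be told apart from one between the 2 sets of libraries. With all 12 libraries 0 members and 0% of 10214 genes passed by limma. An unadjusted p under 0.05 was seen in 6 members and 9.11% of genes, and the members' median difference was -0.18, against 0.0065 for all genes. Without miR499 3, 12 members passed, all lower with miR499, where 7.72% of genes passed (64 higher and 725 lower) and 24 members and 25.6% of genes had an unadjusted p under 0.05. These were Cdc6, Mcm5, Mcm6, Mcm7, Cdc45, Gins3, Pola2, Rfc3, Rfc5, Fen1, Rrm2 and Chaf1a. The largest was that of Chaf1a, at -0.75 ± 0.19 (adjusted p 0.035 by limma; -0.13 ± 0.56 over all libraries), in which the miR184 libraries were above their controls and miR499 2 below its own. Fen1 differed by -0.61 ± 0.10 (adjusted p 0.013 by limma), against -0.39 ± 0.22 over all libraries. With median-ratio factors as well, Fen1 alone of the 46 passed, where 1.82% of all genes did.

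A second list of 58 replication and S phase genes outside the 46, such as further origin, checkpoint and E2F genes, was read from the same fits. With miR184, 0 of the 58 passed, 39 were higher (50.6% of all genes) and the median was 0.03. Without miR184 3, 27 were higher and 31 lower (52.4% of all genes were higher), with a median of -0.0058. With miR499, 56 were tested and 0 passed over all libraries, with 24 higher. Without miR499 3, 10 of the 56 passed, 9 lower and 1 higher, a share near the 17.1% of all genes that passed (13.7% lower), with 22 higher in all and a median of -0.05, close to the -0.06 of all genes. The lower genes included the origin recognition subunits Orc5 (-0.69 ± 0.08), Orc3 (-0.57 ± 0.09) and Orc2 (-0.45 ± 0.10) and Cdca7 (-0.54 ± 0.09). Orc5 went from a mean of 19.4 RPKM in controls 4 to 6 to 11.6 in miR499 1 and 2. The cyclin E genes Ccne1 and Ccne2, the deoxycytidine kinase gene Dck and the histone chaperone gene Asf1a were also among them. The gene that rose was E2f2, at 0.37 ± 0.10 from a mean of 0.844 RPKM in controls. With factors from genes of at least 5 RPKM 9 of the 56 passed, 5 higher and 4 lower, where 13.3% of all genes passed, 9.18% higher and 4.17% lower. With median-ratio factors over all genes 8 of the 56 passed, against 12.5% of all genes, among them Orc5, Orc3, Cdca7, Ccne2 and Orc2 as lower and Topbp1 and E2f2 as higher.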

How the data were processed

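Sorted mouse HSPC gave RNA (PicoPure kit) for libraries by standard Illumina methods, per the labels' protocols. The authors deposited 2 tables of RPKM, 1 per miRNA, per the file headers. Per the submitters' processing notes, reads were placed on mm10. Aligner, counter, annotation and strand setting were not given in the sources used here. Overlapping genes may therefore share reads. The 0 remaining columns of per-sample values were unused.

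Whole reads were recovered from the RPKM steps for all 21134 genes above 0 (100% within 0.01 reads), and 14853 recovered lengths equalled the GENCODE M21 exon length. Totals of 31990355 to 46601798 reads set the counting precision.

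Genes with a mean of at least 1 RPKM were tested with limma 3.58.1 (R 4.3.3) with an intensity trend on log2(RPKM + 1), a scale that understates changes of low genes. The call was a Benjamini-Hochberg adjusted p under 0.05. Tests are two-sided. An exact test of 3 against 3 cannot go below 0.1, so limma's spread, pooled over genes, carries each call. Without miR499 3 the 2 remaining miR499 libraries were set against 3 controls. The script was tested on simulated data.

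Per role, the genes named with all values in at least 1 comparison were those with the highest mean level, the smallest p in each comparison, or a seed site. Any other gene was added with its values known. The members, lists and tests were chosen with earlier results of these data known. Python 3.11.15, numpy 2.4.6, pandas 2.3.3 and matplotlib 3.10.9 were used. Alternatives covered scaling, filter, pseudocount, voom, array weights, one fit of all 12 libraries, a replicate block and each library left out.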

Additional observations from a re-analysis of the deposited data

Results flagged for a closer look

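Pole2, the second subunit of polymerase epsilon, was at 15.2 RPKM in control 2, the lowest of the 6 control libraries. Its gap to the next lowest was 0.702 of their whole range, above Dixon's 95% critical value for 6 samples. It was the single such value among the 46 genes, and chance alone flags about 1 in 20 groups. The 6 controls were taken as 1 group, as the labels give it. In genes whose level differs between controls 1 to 3 and 4 to 6, such as Pold1, the gap between the sets makes up the range, so a single library does not stand out by this measure. Leaving out control 2 changed no call of a member.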

How the results depend on the processing

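In the miR184 comparison, array weights let 167 genes and 1 member pass. Leaving out each library in turn gave 0 to 2 genes, 0 members and a members' median of -0.0017 to 0.024. The title numbers do not pair miR184 with its controls (correlations of same-numbered deviations 0.0622, -0.0485 and -0.0283), and with them as a replicate block 2 genes and 0 members passed. In the miR499 comparison, leaving out each library in turn gave 0 to 1681 genes, 0 to 17 members and 8 to 20 members higher, the high counts of genes coming from miR499 3 alone. With miR499 3 left out, median-ratio scaling gave 1230 genes, 7 members and 12 members higher, voom 1787 genes, 18 members and 8 members higher, and scaling over genes of at least 5 RPKM 1310 genes, 4 members and 17 members higher. The last 2 settings were added after seeing the data. A replicate block by the numbers in the descriptions, shared by 2 pairs of libraries, left 4 libraries in the fit and gave 426 genes, 2 members and 8 members higher. Its medians, -0.21 for the members and -0.06 for all genes, were close to those of the fit without miR499 3. It is therefore not an independent alternative to that fit, and its spread rests on very few libraries. The Mcm6 change turned from 0.02 to -0.42 without miR499 3 (-0.42 to 0.27 over single libraries left out), -0.34 with median-ratio scaling as well, -0.43 with voom and -0.28 with scaling over genes of at least 5 RPKM. For the difference between the miRNAs, no filter gave 1 gene, leaving out each library in turn 0 to 789 genes and 0 to 12 members, and median-ratio scaling without miR499 3 186 genes and 1 member. Array weights did not converge for miR499 or the difference and were not used there. The causes were not tested. The other alternatives kept the counts of members passed at 0.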
